A study of Mus musculus with 10 samples.

Results

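The genes described here are 10 regulators and markers of the epithelial to mesenchymal transition (EMT), measured in sorted pancreatic tumour cells. Of them, 7 belong to the mesenchymal side: the transcription factor genes Zeb1, Zeb2, Snai1, Snai2, Twist1 and Prrx1, and the intermediate filament gene Vim. The other 3, Grhl2, Ovol1 and Ovol2, encode epithelial transcription factors. They were chosen by name, out of 51707 genes with a matched transcript, and all 10 were above the expression filter that left 17495 genes for testing. The libraries were 10 transcriptomes of cells labelled as epithelial and sorted from pancreatic ductal adenocarcinoma (PDAC), a tumour of the pancreas. Every tumour had been started in the pancreas of a mouse from T6-LOH organoids, which the series design names as KPC organoids, mixed with pancreatic stellate cells (PSCs), fibroblast precursors of the pancreas. In 5 libraries the PSCs were the PSC4 ROSA line, read here as Egfr WT PSC. In the other 5 they were PSC4 EGFR KO B4, read as Egfr KO PSC, a single knockout clone, so that Egfr loss and the clone cannot be told apart. The libraries are called WT-PSC and KO-PSC below by these lines. The title of the series speaks of NSG hosts while all 10 libraries carry the strain C57BL/6J, and no age or sort marker is stated. The Egfr knockout was in the PSCs, so the sorted cells carry no check of it.

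In EMT, epithelial cells loosen their junctions and take on a spindle-shaped, motile form. Zinc finger repressors of the SNAI and ZEB families bind E-box sequences in epithelial genes such as Cdh1 and silence them, and the basic helix-loop-helix factor Twist1 and the homeobox factor Prrx1 act in the same direction. Grhl2, Ovol1 and Ovol2 hold the epithelial state, and Grhl2 and Ovol2 are known to repress Zeb1, as Zeb1 in turn represses epithelial genes. In pancreatic cancer such states are often mixed, and fibroblasts express most of the mesenchymal genes at high levels, so sorted carcinoma cells can carry signal from both.

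The comparison asks whether the balance of these factors in tumour cells differs with the Egfr status of the PSCs. None of the 10 genes passed an adjusted p of 0.05 with the quasi-likelihood test of edgeR. The same test called 0 of all 17495 genes, or 0%. At an unadjusted p under 0.05 it took 1 of the 10, Twist1, against 1426 of all genes (8.15%), of which 621 (3.55%) were higher and 805 (4.6%) lower in KO-PSC libraries. DESeq2 called 0 of the 10 and 127 of 17118 genes (0.742%), and limma voom called 0 of the 10 and 3 of 17495 (0.0171%). The 2 groups overlapped for each of the 10 genes, while over all genes 266 (1.52%) showed no overlap, with the KO-PSC libraries above for 0.777% and below for 0.743%. An absolute log2 fold change of at least 0.6 was seen for 2 of the 10, Twist1 and Prrx1, and for 10.1% of all genes. Among the members 1 pair passed a test of varying together: Zeb1 and Vim were high in the same libraries, of either group. Grhl2 tended to be low there, with an adjusted p of 0.213.

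The libraries held between 39534055 and 53816086 estimated counts in genes. Their epithelial identity was checked on Cdh1, the E-cadherin gene, at 1142 ± 271 CPM (counts scaled to library size, TMM-normalised) in WT-PSC libraries and 1261 ± 379 CPM in KO-PSC libraries (mean ± SD, n = 5 each). The simple keratin gene Krt18 was at 4177 ± 298 and 4302 ± 1001 CPM. Ptprc, which marks leukocytes, had 2.68 ± 1.45 and 1.03 ± 0.448 CPM. Markers of other cells were present at low to moderate levels. The 10 acinar genes summed to between 134 and 452 CPM in WT-PSC libraries and between 105 and 513 CPM in KO-PSC libraries. For the 10 mural and smooth muscle genes the sums were between 113 and 304 CPM and between 83.1 and 198 CPM. The fibroblast list of 15 genes, none at 0 in every library, summed to between 379 and 955 CPM in WT-PSC libraries and between 356 and 1256 CPM in KO-PSC libraries, much of it Col3a1 (412 ± 195 and 477 ± 350 CPM). Of these 15 genes 12 were lower in KO-PSC libraries, with a median log2 fold change of -0.59, while Col3a1 was among the 3 that were higher. Col1a1 was at 199 ± 55.2 and 96.6 ± 27.2 CPM (log2 fold change -1.04), with an adjusted p of 0.321 in edgeR and 0.00643 in DESeq2, which called it. The 13 macrophage genes summed to between 39.0 and 75.7 CPM and between 48.4 and 85.6 CPM. The most abundant of them, Mrc1 (27.2 ± 8.21 and 39.4 ± 16.4 CPM), Cd68 (11.8 ± 4.16 and 13.1 ± 5.70 CPM) and Csf1r (5.94 ± 1.93 and 7.14 ± 2.05 CPM), were the 3 that were higher in KO-PSC libraries. The other 9 tested, with means under 3 CPM, were lower, and the median over the 12 was -1.19. Of the neutrophil genes, Ly6g was at 0.680 ± 0.162 and 1.97 ± 1.05 CPM without overlap (adjusted p 0.376 in edgeR and 0.0198 in DESeq2, which called it). Ly6g was named for these values and was the only tested neutrophil gene that was higher in KO-PSC libraries. The other 3 tested were lower, and the median log2 fold change of the list was -0.53. Fewer cells of a type and less RNA per cell cannot be told apart in such bulk libraries.

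**Figure D1:**
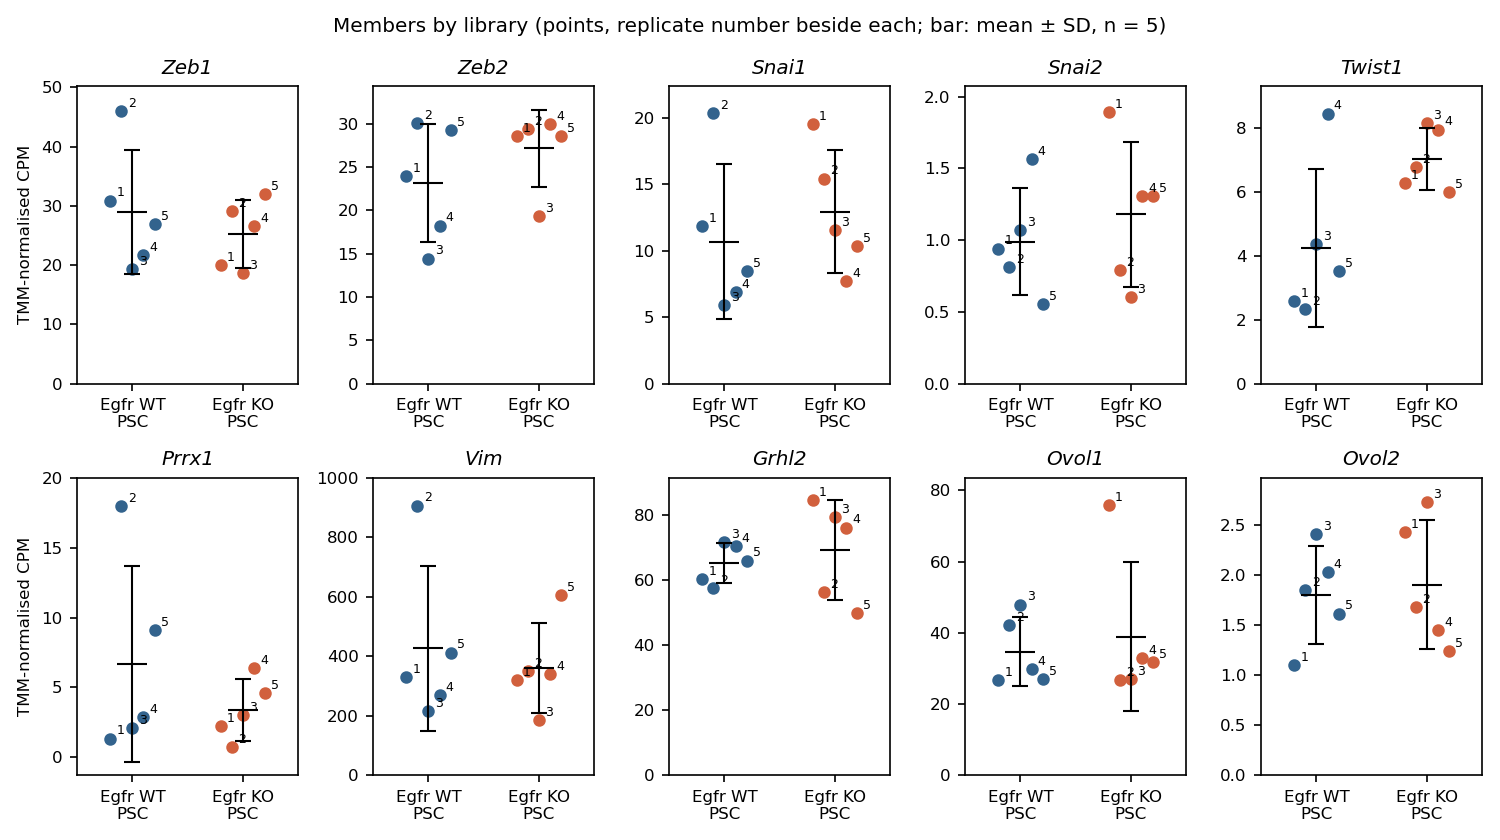
TMM-normalised CPM of the 10 genes (y axes, each from 0 or just below) in the libraries of the WT-PSC group (blue) and the KO-PSC group (orange). Each point is a library with its replicate number, and the bars give the mean ± SD of 5 libraries. The groups overlap in every panel, and single libraries stand out, such as replicate 2 of the WT-PSC group for Vim (907 CPM) and replicate 1 of the KO-PSC group for Ovol1 (76.0 CPM).

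Levels per length were compared in the deposited TPM values (scaled by transcript length and library), summed over the transcripts of a gene. Vim stood far above the others, at 348 ± 174 TPM over all 10 libraries, and was above Grhl2 in 10 of 10 libraries. Grhl2 (23.9 ± 4.03 TPM) and Ovol1 (19.0 ± 7.77 TPM) came next, ahead of every mesenchymal transcription factor on average. Snai1 (12.7 ± 5.2 TPM), Zeb1 (10.3 ± 2.76 TPM), Twist1 (8.09 ± 3.38 TPM) and Zeb2 (7.56 ± 1.5 TPM) followed, and neighbours among these 4 did not differ beyond their spread: Snai1 exceeded Zeb1 in 5 of 10 libraries, Zeb1 exceeded Twist1 in 6 and Twist1 exceeded Zeb2 in 7. Zeb2 was above Ovol2 in all 10. At the low end, Ovol2 was at 2.08 ± 0.643, Prrx1 at 1.93 ± 2.12 and Snai2 at 0.803 ± 0.314 TPM, again with overlapping ranges. The last 3 rest on few reads, between 48 and 125 estimated counts per library for Ovol2, 36 and 954 for Prrx1, and 24 and 97 for Snai2.

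Zeb1 encodes a zinc finger and homeodomain repressor that is central to EMT in carcinoma. It was at 30.9, 46.0, 19.3, 21.7 and 26.9 CPM in replicates 1 to 5 of the WT-PSC group, and at 20, 29.1, 18.7, 26.6 and 32.0 CPM in replicates 1 to 5 of the KO-PSC group. The highest value was that of replicate 2 of the WT-PSC group, and the remaining 9 libraries interleaved. The log2 fold change, given throughout as Egfr KO PSC over Egfr WT PSC, was -0.20 (95% confidence interval -0.71 to 0.32, edgeR adjusted p = 0.855), and it was 0.03 without replicate 2 of the WT-PSC group. Its main coding transcript, ENSMUST00000025081, held 67.5 ± 5.50% of the Zeb1 counts in WT-PSC libraries and 72.1 ± 3.80% in KO-PSC libraries. A non-coding processed transcript, ENSMUST00000177030, which is named because of its values, held 22.1, 20.7, 24.3, 26.6 and 20.4% in WT-PSC libraries and 18.2, 16.6, 8.68, 18.7 and 16.9% in KO-PSC libraries. The groups did not overlap in this share. The difference of -7.03 percentage points had an exact permutation p of 0.00794, the smallest that 252 assignments allow, and an adjusted p of 0.103 over the 13 transcript shares examined.

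Zeb2, the paralogue of Zeb1, is also expressed in macrophages and other stromal cells. Its levels were 23.9, 30.0, 14.4, 18.2 and 29.3 CPM in WT-PSC libraries and 28.5, 29.4, 19.3, 29.9 and 28.5 CPM in KO-PSC libraries. In the KO-PSC group 4 libraries lay close together and replicate 3 lay well below them. Its log2 fold change was 0.23 (95% confidence interval -0.22 to 0.68, edgeR adjusted p = 0.803). The coding transcript ENSMUST00000028229 held 57.5 ± 2.37% and 56.6 ± 12.8% of its counts, and ENSMUST00000177302 held 25.5 ± 6.39% and 24.8 ± 5.62%. The gene Zeb2os overlaps Zeb2 in the annotation, and likewise Gm10125 overlaps Zeb1, Gm20471 overlaps Prrx1, Gm16136 and Gm16137 overlap Grhl2, AC126029.1 overlaps Ovol1 and 1700108N11Rik overlaps Ovol2. Strand use in the quantification is not stated, so reads of overlapping exons cannot be assigned with certainty.

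Snai1 and Snai2 encode the zinc finger repressors SNAIL and SLUG, and Snai1 is known to bind an E-box in its own promoter. The upstream windows of 3 of the factors are shown because they are the regulatory sequence nearest to these genes, and the first holds such a motif. They are the 250 bases before the start site, from RefSeq promoters of GRCm38.p6, read 5′ to 3′ on the gene's strand, with matches to CAGGTG or its reverse complement CACCTG in capitals. The Snai1 window lies at chr2:167537945-167538194 on the plus strand, the Twist1 window at chr12:33957421-33957670 on the plus strand, and the Zeb2 window, of the most upstream of 4 listed starts, at chr2:45117443-45117692 on the minus strand.
Snai1: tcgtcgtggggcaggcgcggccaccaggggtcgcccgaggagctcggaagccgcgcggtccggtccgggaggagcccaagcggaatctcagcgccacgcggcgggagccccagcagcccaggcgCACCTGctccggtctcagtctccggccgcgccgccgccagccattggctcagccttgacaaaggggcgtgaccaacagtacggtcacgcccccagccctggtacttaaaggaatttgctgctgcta
Twist1: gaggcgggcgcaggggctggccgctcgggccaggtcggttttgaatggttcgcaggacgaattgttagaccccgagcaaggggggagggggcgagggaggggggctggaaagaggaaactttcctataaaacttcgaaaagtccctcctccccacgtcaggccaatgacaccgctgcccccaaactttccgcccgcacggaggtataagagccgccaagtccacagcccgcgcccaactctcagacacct
Zeb2: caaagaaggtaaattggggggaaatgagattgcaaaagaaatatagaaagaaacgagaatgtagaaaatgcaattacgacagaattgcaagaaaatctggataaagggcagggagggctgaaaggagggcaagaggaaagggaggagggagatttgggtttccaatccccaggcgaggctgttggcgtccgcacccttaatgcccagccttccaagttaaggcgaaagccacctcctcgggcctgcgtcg
A window was found for 6 of the 10 genes (Ovol2, Prrx1, Snai1, Twist1, Vim and Zeb2, 9 windows in all). The E-box was in 1 of the 9, that of Snai1, starting 126 bases before its start site. Over all 32851 windows of the same length 17.2% held it. The OVOL core CCGTTA (2.18% of all windows) and the GRHL motif AACCGGTT (0.116%), searched on both strands, were in none of the 9. A match of letters is a description of the window and not a bound site.

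Snai1 was far more abundant per length than Snai2, at 12.7 against 0.803 TPM. Its levels were 11.8, 20.4, 5.88, 6.89 and 8.47 CPM in WT-PSC libraries and 19.5, 15.4, 11.6, 7.71 and 10.4 CPM in KO-PSC libraries. Replicate 2 of the WT-PSC group and replicate 1 of the KO-PSC group were highest, and the lowest 2 libraries were of the WT-PSC group. The log2 fold change was 0.27 (95% confidence interval -0.48 to 1.03, edgeR adjusted p = 0.860), and it was 0.64 without replicate 2 of the WT-PSC group and 0.079 without replicate 1 of the KO-PSC group. Snai2 was scarce, with 41, 43, 54, 66 and 24 estimated counts in WT-PSC libraries and 97, 41, 26, 55 and 56 in KO-PSC libraries. Its log2 fold change was 0.26 (95% confidence interval -0.52 to 1.04, edgeR adjusted p = 0.873), and it was 0.025 without replicate 1 of the KO-PSC group and 0.48 without replicate 4 of the WT-PSC group. Both SNAI genes have a single transcript in the files.

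Twist1, a factor of mesoderm development that many carcinomas re-express, had the lowest edgeR p of the 10 genes. It was at 2.59, 2.32, 4.36, 8.45 and 3.51 CPM in WT-PSC libraries and at 6.28, 6.78, 8.14, 7.95 and 6.01 CPM in KO-PSC libraries. All 5 libraries of the KO-PSC group lay above 4 of the 5 of the WT-PSC group, and replicate 4 of the latter lay above all 5. The log2 fold change was 0.73 (SE 0.32, 95% confidence interval 0.03 to 1.43), with an edgeR p of 0.0421 before and 0.604 after adjustment over all genes. By p, 6.94% of all genes ranked at or ahead of it. Without replicate 4 of the WT-PSC group the log2 fold change was 1.14 and the edgeR adjusted p 0.409. With limma voom the log2 fold change of Twist1 was 0.51 and its unadjusted p 0.165. There Zeb2 had the lowest p of the members (limma voom p 0.0207, adjusted p 0.299). Twist1 was the single member whose interval lay on one side of 0.

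Prrx1 encodes a homeobox factor of mesenchyme and of fibroblast lineages, and it was the most variable of the 10 genes. It was at 1.33, 18.0, 2.06, 2.89 and 9.14 CPM in WT-PSC libraries and at 2.22, 0.695, 3.03, 6.40 and 4.60 CPM in KO-PSC libraries. Replicates 2 and 5 of the WT-PSC group were highest. Prrx1 gave a log2 fold change of -0.98 (95% confidence interval -2.54 to 0.57, edgeR adjusted p = 0.745), and it was -0.18 without replicate 2 of the WT-PSC group. Among its transcripts ENSMUST00000174397 held 41.0 ± 5.33% and 38.8 ± 4.0% of the counts. The transcript ENSMUST00000027878 held 40.6 ± 6.80% in WT-PSC libraries and 14.2 ± 20.2% in KO-PSC libraries, and was listed at 0 in replicates 1, 2 and 3 of the latter (exact permutation p = 0.0397, adjusted p = 0.258). These libraries have at most 131 estimated counts for the whole gene, so the division among transcripts is loose. Replicates 1, 3 and 4 of the WT-PSC group, with 58, 104 and 122 counts, held 41.3, 31.0 and 40.1% in ENSMUST00000027878. The coding transcript ENSMUST00000075805 held 5.28 ± 11.8% in WT-PSC and 35.5 ± 26.6% in KO-PSC libraries (exact permutation p = 0.0873, adjusted p = 0.378). The reason for the zeros was not tested.

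Vim encodes vimentin, the intermediate filament of mesenchymal cells and a common readout of EMT. It was at 330.2, 907, 215, 268 and 412 CPM in WT-PSC libraries and at 319.8, 350, 184, 339.6 and 604 CPM in KO-PSC libraries. Replicate 2 of the WT-PSC group and replicate 5 of the KO-PSC group were highest, and replicate 3 was lowest in both groups, replicate numbers being names that pair nothing. Vim gave a log2 fold change of -0.25 (95% confidence interval -1.09 to 0.60, edgeR adjusted p = 0.892), and it was 0.23 without replicate 2 of the WT-PSC group. The coding transcripts ENSMUST00000028062 (64.99 ± 2.99% and 64.1 ± 2.75% of counts) and ENSMUST00000193675 (27.7 ± 2.80% and 28.6 ± 3.22%) differed between groups by less than their spread.

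Grhl2, a grainyhead factor that activates epithelial junction genes, was the steadiest of the 10, with a coefficient of variation of 16.6% over all libraries. It was at 60.4, 57.7, 71.7, 70.4 and 66.1 CPM in WT-PSC libraries and at 84.7, 56.4, 79.5, 76.2 and 49.8 CPM in KO-PSC libraries. KO-PSC libraries spread on both sides of the WT-PSC range. The log2 fold change was 0.09 (95% confidence interval -0.24 to 0.41, edgeR adjusted p = 0.903), the narrowest interval of the set. Its main coding transcript ENSMUST00000022895 held 76.0 ± 6.63% and 76.4 ± 1.56% of the counts.

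Ovol1 and Ovol2 encode zinc finger repressors of mesenchymal genes. Ovol1 was at 26.8, 42.2, 47.9, 29.7 and 27.0 CPM in WT-PSC libraries and at 76.0, 26.6, 27.0, 32.9 and 31.8 CPM in KO-PSC libraries, with replicate 1 of the latter far above the others. Its log2 fold change was 0.16 (95% confidence interval -0.48 to 0.81, edgeR adjusted p = 0.909), and it was -0.23 without that library. Ovol2 was at 1.10, 1.85, 2.42, 2.04 and 1.62 CPM in WT-PSC libraries and at 2.44, 1.68, 2.73, 1.45 and 1.24 CPM in KO-PSC libraries. The groups interleaved, with a log2 fold change of 0.08 (95% confidence interval -0.55 to 0.71, edgeR adjusted p = 0.963). Ovol1 was thus the dominant member of the OVOL pair in these libraries, at 19.0 against 2.08 TPM.

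**Figure D2:**
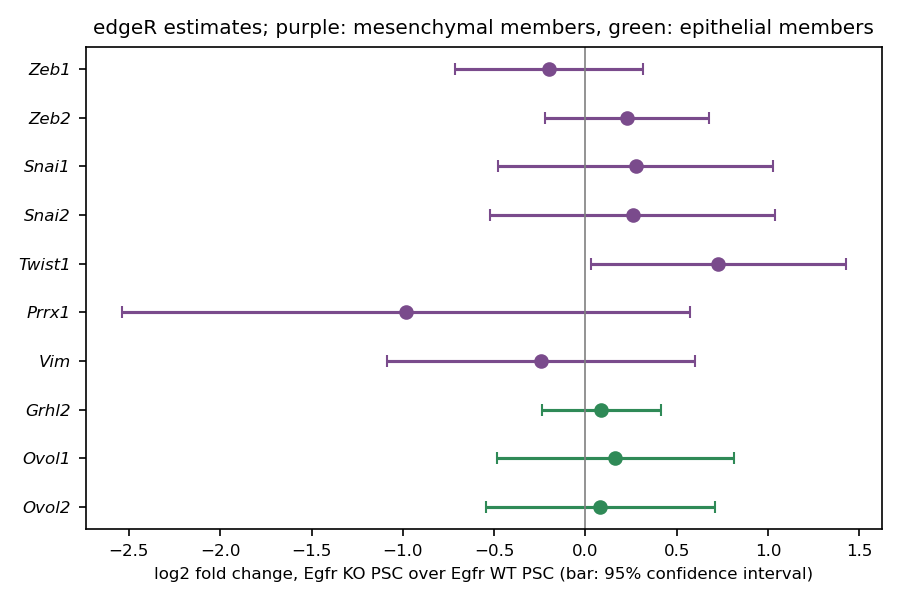
Log2 fold change of each gene, Egfr KO PSC over Egfr WT PSC, from the edgeR fit (x axis), with 95% confidence intervals from 5 libraries a group. Purple marks the 7 mesenchymal members and green the 3 epithelial members, and the interval lies on one side of 0 for Twist1 alone (0.03 to 1.43).

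By sign, 4 of the 7 mesenchymal members were higher in KO-PSC libraries and 3 lower (median log2 fold change 0.23), and the 3 epithelial members were all higher (median 0.087), none of them called. Over all genes tested 50.1% were higher, with a median of 0.00041. As a balance, the mean log2 CPM of the 3 epithelial members was subtracted from that of the 7 mesenchymal members in each library. It was -0.29, 0.20, -1.23, -0.48 and -0.17 in WT-PSC libraries and -0.86, -0.32, -0.81, -0.083 and 0.29 in KO-PSC libraries. The library with the most mesenchymal balance in each group, replicate 2 of the WT-PSC group and replicate 5 of the KO-PSC group, was above 0, and the others were below it. The group means were -0.40 ± 0.53 and -0.36 ± 0.49 (SD, n = 5 each), a difference of 0.041 against a pooled SD of 0.51. Without Vim the means were -1.22 ± 0.48 and -1.14 ± 0.43, and every library was below 0. The highest were then again replicate 2 of the WT-PSC group (-0.73) and replicate 5 of the KO-PSC group (-0.59). CPM is not scaled by transcript length, so the position of 0 marks no equal amount of the 2 sides. Per length, the 6 mesenchymal transcription factors summed to 39.3 ± 9.94 and 43.4 ± 4.05 TPM and the 3 epithelial factors to 43.3 ± 7.81 and 46.5 ± 13.7 TPM, so that the 2 sides were of similar size in either group. The ratio of Zeb1 to Grhl2 in TPM ranged from 0.317 to 0.914 in WT-PSC libraries and from 0.234 to 0.628 in KO-PSC libraries.

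**Figure D3:**
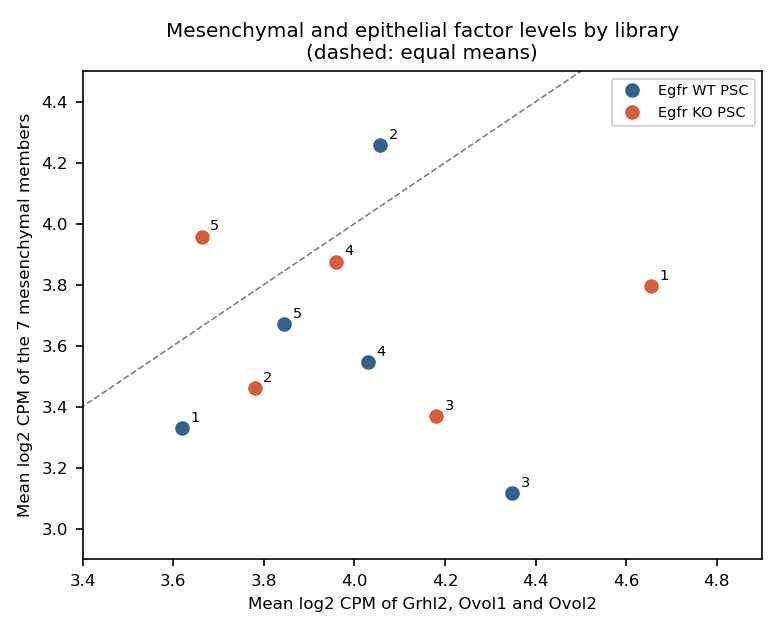
Mean log2 CPM of the 7 mesenchymal members (y axis) against that of Grhl2, Ovol1 and Ovol2 (x axis), 1 point per library with its replicate number, blue for Egfr WT PSC and orange for Egfr KO PSC. The dashed line marks equal means. Replicate 2 of the WT-PSC group and replicate 5 of the KO-PSC group lie above it, which they would not with Vim left out. The 2 groups cover the same area.

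Some members varied together across the 10 libraries. Of the 45 pairs, 23 had a Pearson r of log2 CPM above 0, and 1 passed a permutation test adjusted over the 45. That pair was Zeb1 with Vim (r = 0.91, permutation p = 0.00023, adjusted p = 0.0103, rho = 0.90, rho p = 0.00084, adjusted p = 0.0378, n = 10). The r was 0.77 without the 2 libraries farthest from the median of Zeb1, replicate 2 of the WT-PSC group and replicate 3 of the KO-PSC group, and 0.92 with the group means subtracted. The call was lost without replicate 2 of the WT-PSC group alone (r = 0.83, adjusted p = 0.0569) and in TPM (r = 0.76, adjusted p = 0.158). In order of Zeb1, the libraries ran from replicate 3 of the KO-PSC group (18.7 CPM of Zeb1, 184 CPM of Vim) to replicate 2 of the WT-PSC group (46.0 and 907 CPM).

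Grhl2 ran the other way. Its r with Zeb1 was -0.77 (permutation p = 0.00945, adjusted p = 0.213, rho = -0.85, rho p = 0.003, adjusted p = 0.0675), and -0.80 without the same 2 libraries. In TPM it was -0.87, with an adjusted p of 0.0256. With protein-coding transcripts only it was -0.67, with an adjusted permutation p of 0.244. Of 18 alternatives 2 passed for this pair, both in TPM. Ovol2, too, was lower where Zeb1 was higher (r = -0.65, permutation p = 0.0432, adjusted p = 0.290, rho = -0.75, rho p = 0.0182, adjusted p = 0.189). Replicate 2 of the WT-PSC group stood off that line, and without it the r was -0.96 with an adjusted p of 0.00675, a library left out after its position was seen. That was the only 1 of 18 alternatives in which Zeb1 with Ovol2 passed. With protein-coding transcripts only the r was -0.49, with an adjusted permutation p of 0.405. Zeb2 with Vim gave an r of 0.71 (permutation p = 0.0236, adjusted p = 0.290, rho = 0.83, rho p = 0.00475, adjusted p = 0.0713). For Vim with Grhl2 the r was -0.68 (permutation p = 0.0304, adjusted p = 0.290, rho = -0.73, rho p = 0.021, adjusted p = 0.189). In TPM the r of Vim with Grhl2 was -0.88, with an adjusted permutation p of 0.0256. This pair, too, passed in 2 of 18 alternatives, both in TPM, and its r over the 18 ranged from -0.88 to -0.59. Without the 2 libraries farthest from the median of the first gene, these last 3 pairs gave -0.94, 0.69 and -0.64. The file names carry a number of 8, 9 or 10, whose meaning is not given. With this number as a factor the r of Zeb1 was 0.90 with Vim and -0.74 with Grhl2, and each number holds too few libraries for a value of its own.

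**Figure D4:**
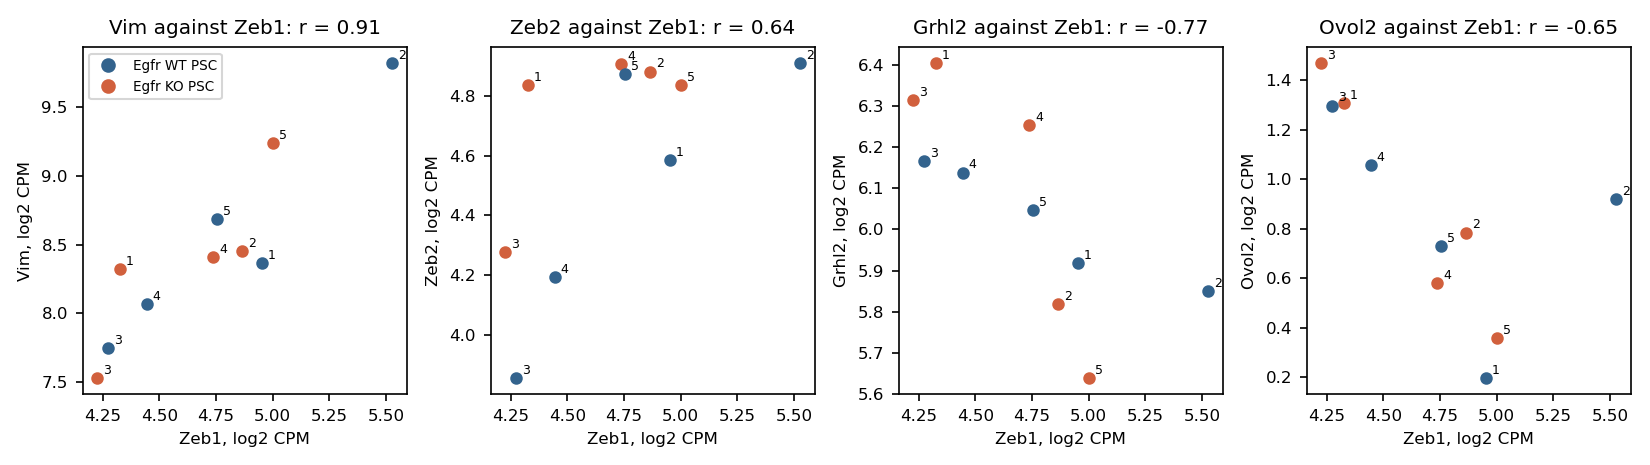
Log2 CPM of Vim, Zeb2, Grhl2 and Ovol2 (y axes) against that of Zeb1 (x axes), 1 point per library with its replicate number, blue for Egfr WT PSC and orange for Egfr KO PSC. Vim follows Zeb1 (r = 0.91), and Grhl2 (r = -0.77) and Ovol2 (r = -0.65) run against it. Both groups lie along the same trend for Vim and Grhl2. For Zeb2 the r was 0.64, and 0.79 with the group means subtracted. Replicate 2 of the WT-PSC group stands off the trend of Ovol2.

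Because fibroblasts and macrophages express several of these genes, each member was set against the mean log2 CPM of the 15 fibroblast and the 13 macrophage genes. None of the 20 relations passed, with adjusted permutation p of 0.968 or more. Zeb1 had an r of -0.041 with the fibroblast score (rho 0.030) and 0.25 with the macrophage score (rho -0.055). For Vim the r was 0.0010 (rho -0.030) and 0.19 (rho -0.12), and for Prrx1 0.31 (rho 0.27) and 0.37 (rho 0.14). Without the 2 libraries farthest from the median of the fibroblast score, the r was -0.015 for Zeb1, -0.11 for Vim and -0.29 for Prrx1. Without the 2 farthest on the macrophage score it was -0.48, -0.68 and 0.11. The r with the macrophage score was largest in size for Twist1, at -0.57 (rho -0.33), and -0.13 without those 2 libraries. For Zeb2 it was -0.36 (rho -0.27) and for Snai1 0.051 (rho -0.079), against -0.80 and -0.79 without them, so these values depend on those libraries. With the fibroblast score taken out the r of Zeb1 with Vim was 0.91, and with the macrophage score taken out 0.91. Over all 10 libraries neither score was strongly related to either gene, so taking it out could change little. Without 2 libraries the relations with the macrophage score were stronger, as given above. The part of other cells in this pair was not tested. The fibroblast score itself was 2.83 ± 0.38 in WT-PSC libraries and 2.24 ± 0.30 in KO-PSC libraries, and the macrophage score 0.54 ± 0.50 and -0.31 ± 0.35. The macrophage score counts each gene alike and rests mostly on genes of low CPM. The summed CPM of the same genes, led by Mrc1, went the other way, at 55.4 ± 13.4 and 64.0 ± 15.8. With the macrophage score as a covariate the log2 fold changes of Zeb1, Prrx1 and Vim were 0.02, 0.15 and 0.32, against -0.20, -0.98 and -0.25 without it, none of them called. This score differed between the groups, so the fit cannot fully separate it from the PSC line.

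**Figure D5:**
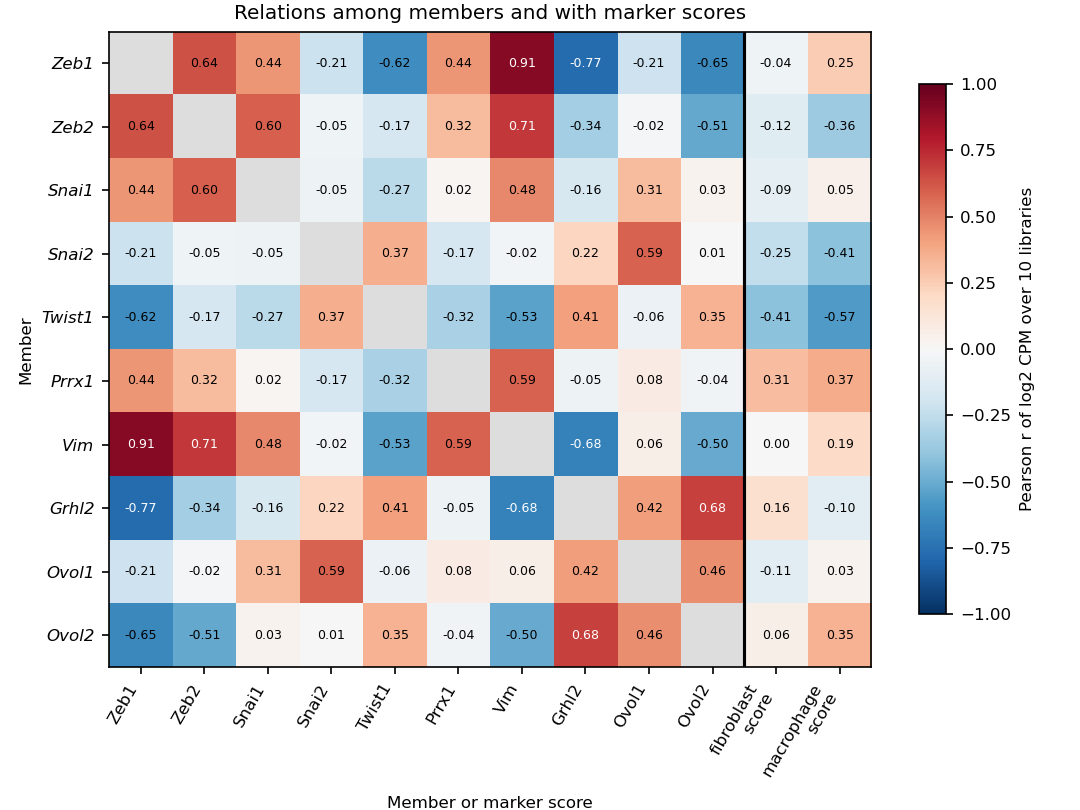
Pearson r of log2 CPM over the 10 libraries for each pair of the 10 genes, and in the last 2 columns with the fibroblast and macrophage marker scores. Red is positive and blue negative. The strongest value is Zeb1 with Vim (0.91), and none of the values in the marker score columns passes the test.

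Target genes of these factors were examined with lists of known epithelial and mesenchymal genes. Of 26 epithelial genes, 16 were higher and 10 lower in KO-PSC libraries, none called, with a median log2 fold change of 0.046. The 4 of lowest p were the tight junction genes Tjp3 (22.0 ± 9.44 and 11.9 ± 5.86 CPM) and Marveld3 (36.2 ± 15.0 and 21.6 ± 8.37 CPM), the polarity gene Llgl2 (68.1 ± 21.9 and 47.6 ± 14.3 CPM) and the keratin gene Krt19 (3465 ± 216 and 4339 ± 1106 CPM). Of 20 mesenchymal genes 19 were tested, 8 higher and 11 lower, none called, with a median of -0.036. At an unadjusted edgeR p under 0.05, 4 of them were lower and 1 higher, against 4.6% and 3.55% of all genes tested. The 4 lower ones were also the 4 of lowest p: the matrix protease gene Mmp2 (3.68 ± 1.43 and 1.5 ± 0.823 CPM), the collagen gene Col5a2 (23.0 ± 9.01 and 13.9 ± 3.21 CPM), the cadherin gene Cdh11 (1.26 ± 0.261 and 0.670 ± 0.276 CPM) and the crosslinking enzyme gene Lox (6.59 ± 5.08 and 2.68 ± 1.44 CPM). Fibroblasts express these 4 genes, and 12 of the 15 fibroblast markers were lower in the same libraries, whose part in the result was not tested.

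Across libraries, epithelial genes were mostly lower where Zeb1 was higher. Of the 26, 4 had an r above 0 with Zeb1 (15.4%, median r -0.37), against 46.8% of all genes tested. The share was also low among the related transcription factors (5 of 18, 27.8%, median -0.11). Among the corepressors and regulators it was 7 of 24 (29.2%, median -0.22), so a low share was not particular to epithelial genes. The most negative of the 26 was Ap1m2, a subunit of epithelial sorting complexes (r = -0.81), followed by the desmosome gene Dsp (r = -0.72). Cdh1, named above as silenced by these repressors, had an r of -0.037 with Zeb1. The 4 above 0 were Krt8 (r = 0.43), Krt18 (r = 0.37), Tjp1 (r = 0.33) and Krt19 (r = 0.093). With Grhl2, 20 of the 26 had an r above 0 (76.9%, median 0.31), against 53.0% of all genes. The share was as high among the corepressors and regulators (20 of 24, 83.3%, median 0.30) and the related transcription factors (14 of 18, 77.8%), so it was not particular to epithelial genes. Its highest was Rab25, a GTPase of epithelial recycling endosomes (r = 0.85). Among the 19 mesenchymal genes 14 had an r above 0 with Zeb1 (73.7%), with a median of only 0.10. With Vim there were 16 (84.2%, median 0.22, against 48.6% of all genes). Highest for Zeb1 were S100a4 (r = 0.70) and the receptor kinase gene Axl (r = 0.68). Markers of other cells followed the same members about as often: 11 of 12 macrophage and 8 of 9 acinar genes had an r above 0 with Zeb1, and 10 of 12 and 9 of 9 with Vim, and their part in the result was not tested. These genes share the same 10 libraries and are not independent, and the 5 genes named as most negative or highest were picked for their values. As scores, neither list passed with any member over 20 relations (lowest adjusted permutation p 0.271).

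None of the listed relatives and partners of the factors was called. Of 20 related transcription factor genes 18 were tested, 8 higher and 10 lower, with a median of -0.0067. Those of lowest p were the chromatin gene Hmga2 (152 ± 67.6 and 213 ± 57.1 CPM), the E-protein gene Tcf4 (69.7 ± 8.52 and 60.4 ± 9.26 CPM), the Grhl2 paralogue Grhl1 (2.46 ± 0.729 and 1.87 ± 0.516 CPM) and the epithelial ETS factor gene Ehf (237 ± 46.1 and 204 ± 45.3 CPM). Of 24 corepressors and regulators of SNAI and ZEB proteins, 18 were higher and 6 lower, with a median of 0.066. Fbxo11, a ubiquitin ligase subunit that targets SNAI proteins, was at 43.6 ± 6.53 and 48.4 ± 2.12 CPM. The LIM protein gene Limd1 was at 20.9 ± 0.690 and 19.0 ± 1.89 CPM, the kinase gene Pak1 at 63.7 ± 4.32 and 57.9 ± 7.60 CPM, and Ctbp2, a corepressor that binds ZEB proteins, at 40.3 ± 5.24 and 43.9 ± 4.09 CPM. None of these 8 genes was called.

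Genes with the most similar pattern were sought among 10159 protein-coding genes whose mean reached 5 CPM, by Pearson r of log2 CPM over the 10 libraries. With so many genes and 10 libraries, high values are given as descriptions. For Zeb1 they were Mcub (r = 0.98), 1600014C10Rik (r = 0.97) and Abhd18 (r = 0.97). For Vim they were Plekho2 (r = 0.96), Nr3c1 (r = 0.95) and 4930503L19Rik (r = 0.95). Zeb2 was closest to Lats2, St6galnac4 and Tpi1 (r = 0.90 each). Grhl2 was closest to L1cam (r = 0.90), B4galt3 (r = 0.87) and Tia1 (r = 0.86), and Ovol1 to Brd2 (r = 0.88), Meis3 (r = 0.88) and Ltf (r = 0.87).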

How the data were processed

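The 10 libraries, 5 WT-PSC and 5 KO-PSC, hold RNA of sorted tumour cells and were grouped by the PSC line in the labels. Per the submitters' processing notes the values came from Salmon 1.9.0 with GRCm39. The authors deposited, per transcript and library, estimated counts, TPM (scaled by length and total) and effective lengths. Of 147828 transcripts, 137063 (92.7%) were named through GENCODE M21 of GRCm38, used for names only, and held 98.1 to 98.7% of the counts. The others entered no gene. Counts were summed per gene and rounded, giving 39534055 to 53816086 per library.

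Genes were tested with edgeR 4.0.16 (R 4.3.3; quasi-likelihood F test, TMM, minimum count 10, no covariate), with Benjamini-Hochberg adjustment over 17495 genes and a threshold of 0.05. Alternatives used DESeq2 1.42.0, limma 3.58.1 (voom, and log2(TPM + 0.1) or log2(TPM + 1)), other filters, covariates and each library left out. The edgeR fit was tested on simulated data. Log2 CPM has a prior count of 2. Relations over libraries used two-sided permutation tests with 100000 resamples, and transcript shares exact permutation tests, both two-sided.

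The labels pair no libraries and do not say that each came from its own mouse, and the p-values then reflect only the variation among these libraries, which may be technical. No pair agreed within sampling noise (lowest chi-square per degree of freedom 39.0). Counts carry no molecular identifiers. The members and lists were chosen with earlier results of these data known. Named from each pathway list were the 4 genes of lowest p, and for 5 members the 3 most similar genes. Of the fibroblast and macrophage markers, abundant ones were named. Ptprc was added as a leukocyte marker and Ly6g for its values, and no endothelial, mural or acinar marker was named. Relations among members and with the epithelial and mesenchymal lists, and transcript shares, were added after values were seen. Endothelial (10 genes, 9 tested, 9 lower, median -0.28), mural (10 tested, 8 lower, median -0.33), acinar (9 tested, 6 higher, median 0.077) and neutrophil markers (4 tested, 3 lower, median -0.53) were also counted, with none called by edgeR and 1, Ly6g, called by DESeq2.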

Additional observations from a re-analysis of the deposited data

Results flagged for a closer look

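In 22 groups of 5 libraries (the 10 genes and the balance, in both groups), 3 had a library set apart by more of the group's range than Dixon's 95% limit of 0.71 allows, and chance gives about 1 in 20. Zeb2 was at 19.3 CPM in replicate 3 of the KO-PSC group, below the other 4. Vim was at 907 CPM in replicate 2 of the WT-PSC group, above the other 4. Ovol1 was at 76.0 CPM in replicate 1 of the KO-PSC group, above the other 4. The fibroblast genes summed to 1256 CPM in that last library, the highest of the 10, mostly from Col3a1, while its fibroblast score of 2.59 was the fifth highest, and their part in the result was not tested.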

How the results depend on the processing

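No member was called under any of the 22 alternatives fitted for each. Of 220 estimates, 207 kept the direction. With limma voom the log2 fold changes of Zeb1, Vim and Ovol2 were 0.035, 0.12 and -0.10, and with the macrophage score as a covariate those of Zeb1, Snai2, Prrx1 and Vim were 0.019, -0.30, 0.15 and 0.32, on the other side of 0. Leaving out single libraries gave -0.31 to 0.034 for Zeb1, -0.51 to 0.23 for Vim, -0.23 to 0.31 for Ovol1, -0.076 to 0.21 for Ovol2, 0.079 to 0.64 for Snai1, 0.025 to 0.48 for Snai2, 0.097 to 0.34 for Zeb2, -1.34 to -0.18 for Prrx1, 0.58 to 1.14 for Twist1 and 0.013 to 0.19 for Grhl2. Zeb2, Snai1, Twist1 and Grhl2 kept their direction in all 22. The balance difference stayed within 1 pooled SD of its value in every alternative run, and was -0.17 to 0.19 with single libraries left out. The r of Zeb1 with Vim was called in 15 of 18 alternatives, added after the values were seen. It was 0.762 with log2(TPM + 0.1), 0.764 with log2(TPM + 1), both not called, and 0.83 to 0.95 with single libraries left out, the call ending without replicate 2 of the WT-PSC group. The cause was not tested. Few reads limit Snai2, Ovol2 and Prrx1. No paired analysis was possible because the labels link no library of one group to one of the other.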

Other observations

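Not every mesenchymal member ran against the epithelial genes. Snai2 had an r above 0 with 22 of the 26 epithelial genes (84.6%, median r 0.39), against 51.3% of all genes tested. Twist1 had an r above 0 with 17 of them (65.4%, median 0.21), against 50.04%. Its share was higher among the corepressors and regulators (18 of 24, 75%, median 0.12), so it was not particular to epithelial genes. With Snai2, 0 of 9 endothelial (median r -0.73), 0 of 10 mural (median -0.57), 1 of 9 acinar (median -0.60) and 3 of 15 fibroblast genes had an r above 0, and their part in the result was not tested. With the mean of the epithelial list, Snai2 gave an r of 0.70 (permutation p = 0.0271, adjusted p = 0.271 over 20 relations, rho = 0.58, rho p = 0.0887, adjusted p = 0.549) and 0.61 without the 2 libraries farthest from the median. Ovol1 gave an r of 0.76 (permutation p = 0.0139, adjusted p = 0.271, rho = 0.45, rho p = 0.19, adjusted p = 0.549), which was -0.075 without replicate 1 of the KO-PSC group and replicate 3 of the WT-PSC group, so that it rests on those libraries. Twist1 with Zeb1 had an r of -0.62, and neither this pair nor Snai2 with Twist1 (r = 0.37) was among the pairs that passed.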
